A study of Rattus norvegicus with 12 samples.

Results

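The subject is the time course of gene expression in rat oligodendroglial cells that carry p25alpha, followed at 8, 12 and 16 h after transfection. The members are the 6 arrays whose titles name p25, out of 12 arrays in the series. They fall into 3 groups of 2, p25alpha cells at 8 h, 12 h and 16 h, with 1 array from experiment 1 and 1 from experiment 2 in each. The other 6 arrays are mock cells at the same 3 times, again 1 array per experiment and time. All 12 cultures were OLN cells, an oligodendroglial line of the rat, that stably express alpha-synuclein, so mock cells carry alpha-synuclein too. They were grown for 24 h before transfection with Fugene-6, p25alpha cells with p25alpha in pcDNA3.1 and mock cells with the empty control vector. pcDNA3.1 drives its insert from a viral promoter and is delivered transiently, and the labels give neither the share of cells that took it up nor whether the stable line is 1 clone. Whether experiments 1 and 2 used separately grown cultures is not stated, so the p-values cover array-to-array spread that could be technical in part.

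p25alpha, the product of Tppp, is a protein of oligodendrocytes that binds tubulin and bundles microtubules. In multiple system atrophy it is found with alpha-synuclein in glial inclusions, and p25alpha promotes alpha-synuclein aggregation in the test tube. Mock cells share the reagent, the DNA and the hours in culture.

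Of 31096 probe sets on the array, 17627 were called present on at least 2 of the 6 p25alpha arrays and were tested, after 57 Affymetrix controls had been left out. Values are MAS5 signals, a linear brightness scaled to the same trimmed mean on every array, and differences are on the log2 scale. Between 49.3% and 53.9% of probe sets were called present on a p25alpha array, with 51.8% and 49.3% at 16 h (experiments 1 and 2) against 53.9% and 51.8% at 8 h. The actin 3′ over 5′ signal ratio, which climbs as RNA or cDNA shortens, was 3.12 and 6.08 at 16 h against 2.40 and 4.74 at 8 h, and in mock cells 2.60 and 7.05 at 16 h against 2.14 and 4.65 at 8 h. It moves with time in both arms, and its part in the results below was not tested. The same ratio of GAPDH was 0.97 and 0.94 at 16 h against 1.09 and 0.90 at 8 h. No probe set carries the name Tppp and 10633 have no gene name, so whether the transfected gene was measured could not be checked. An array averages all cells of a dish, so a change in the share of cells that use a gene and a change per cell cannot be told apart.

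The oligodendroglial label was checked against 19 lineage markers, of which 15 have a probe set. Mog, a protein of myelin, Cnp, a myelin enzyme, the transcription factors Olig1, Sox10 and Nkx2-2, and the precursor markers Pdgfra and Cspg4 were among the 8 markers present on all 6 arrays. Olig2, Ugt8, Mal and Mobp were absent on all 6, and Mbp, the myelin basic protein, was called present on 1. The summed signal of the 10 tested lineage markers was 4220 and 4577 at 16 h against 4906 and 3512 at 8 h, so the groups overlap. Of 10 microglia markers none was present on all 6 arrays and 8 were absent on all, while 6 of 10 astrocyte, 4 of 14 neuron and 3 of 11 fibroblast and smooth muscle markers were present throughout. Summed signals at 16 h against 8 h were 3610 and 2510 against 3552 and 2425 for astrocyte markers, 1077 and 1552 against 1154 and 1398 for neuron markers, and 293.1 and 460.5 against 521.7 and 306.4 for fibroblast and smooth muscle markers, and in each the groups overlap.

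The first comparison asked which transcripts changed between 8 and 16 h in p25alpha cells, with each 16 h array set against the 8 h array of its own experiment. Cholesterol and fatty acid synthesis genes were higher at 16 h, by a median of 0.68 over 29 genes, and mitosis genes were lower, by a median of -0.39 over 24. Il6 and Txnip were also higher, and Pmepa1 and Il1rl1 lower. With 2 experiments the paired limma model called 0 of 17627 probe sets (0.0%) at an adjusted p under 0.05, and the smallest adjusted p was 0.701. At an unadjusted p under 0.05 it found 1183 probe sets (6.71%), 571 higher (3.24%) and 612 lower (3.47%). The model has 2 residual degrees of freedom. Under 2 other settings calls were made, the only processing alternatives tried that gave any for this comparison. The count stayed 0 without pairing by experiment, with quantile normalization and with median centring. It also stayed 0 with mock arrays included in the fit, with no filter and with presence required on every p25alpha array. The 2 settings use the same arrays, so passing both is not an independent check. With eBayes set to trend and robust, which lets the expected spread depend on brightness, 62 probe sets passed (0.352%), 45 higher (0.255%) and 17 lower (0.0964%). With 50 added to every signal before log2, which damps dim probe sets, 43 passed (0.244%), 33 higher (0.187%) and 10 lower (0.0567%). Both settings called the same 42 probe sets, 32 higher and 10 lower, and below "passed both settings" refers to these. Differences and SE below come from the limma models without these settings, also where an adjusted p of a setting stands beside them. The offset changes the difference itself, for Txnip to 1.26 from 1.51. The 32 higher ones hold 19 different named genes, 9 probe sets with no gene name and 1 with several names, and the 10 lower ones hold 8 named genes.

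**Figure D1:**
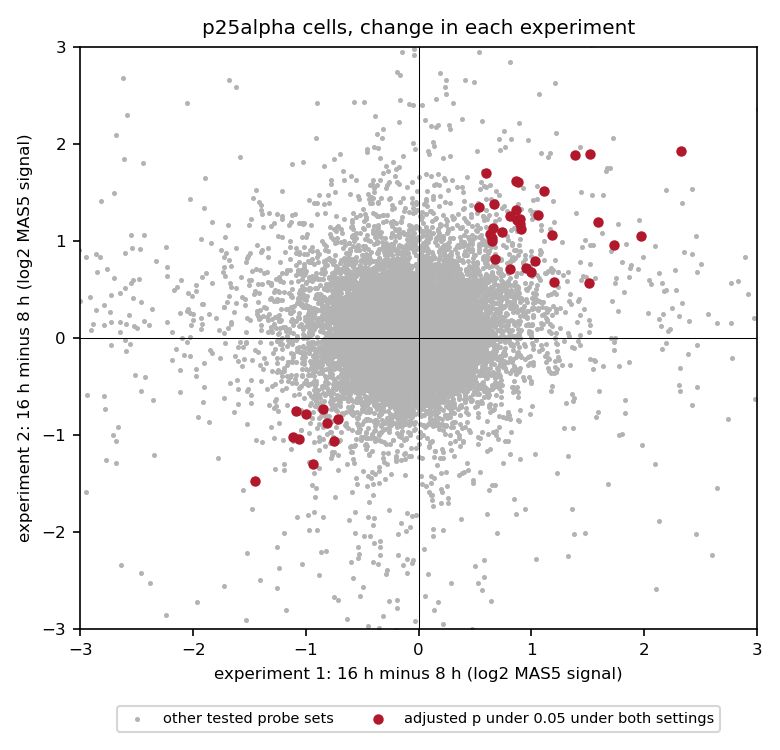
Each point is a tested probe set, with its 16 h minus 8 h difference (log2 MAS5 signal) in experiment 1 on the x axis and in experiment 2 on the y axis, in p25alpha cells. The 42 red points passed an adjusted limma p of 0.05 under both settings and lie away from 0 in the same direction in both experiments, while the grey cloud shows no slope. A further 127 probe sets lie outside the axes.

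The experiments agreed little over all probe sets. Across 17627 probe sets the 16 h minus 8 h differences of the 2 experiments correlated at r = 0.033 (Spearman 0.023), and across the 13261 present on all 6 arrays at 0.049 (Spearman 0.021). Genes are not independent replicates, and this is a description. Higher in both experiments were 4158 probe sets (23.6%) and lower in both 4699 (26.7%). Differences of at least 0.5 in both experiments were found upwards for 362 probe sets (2.05%), downwards for 339 (1.92%) and in opposite directions for 620 (3.52%). The named genes below are therefore given with the signal of every array.

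Cholesterol is made from acetyl-CoA through mevalonate, farnesyl diphosphate, squalene and lanosterol, and the enzymes of the route are transcribed together under SREBP2, a membrane-bound transcription factor that is released when sterol in the endoplasmic reticulum runs low. Oligodendrocytes are known for a high demand, since myelin is rich in cholesterol and is made largely from sterol synthesised in place. Of 30 genes listed, 29 were tested and 27 were present on all 6 arrays. Their median difference at 16 h was 0.68, against -0.02 over all tested probe sets, and it was 0.42 in experiment 1 and 0.997 in experiment 2. Higher in both experiments were 26 of 29, where 23.6% of all probe sets were, and 20 were higher at an unadjusted limma p under 0.05 (3.24% of all). The 1 gene that was lower, of regulation and uptake, measured -0.70. It was lower in both experiments (26.7% of all) and at an unadjusted limma p under 0.05 (3.47% of all). With trend and robust 12 passed (0.255% of all) and with the offset 9 did (0.187%), all of them higher. The list was chosen with results of these data known, and no test of the list as a whole is given. Its summed signal was 36846 and 48254 at 16 h against 26527 and 25090 at 8 h.

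Among the first steps, which lead to farnesyl diphosphate and squalene, all 8 genes were higher in both experiments, by up to 1.04 on the log2 scale. Fdps, which makes farnesyl diphosphate, had signals of 2156 and 1461 at 8 h, 2993 and 2312 at 12 h and 4023 and 3302 at 16 h. Both 16 h arrays lay above both 8 h arrays, and the difference was 1.04 ± 0.15 (SE, n = 2 pairs; limma adjusted p = 9.81e-05 with trend and robust). Hmgcs1, an early synthase of the route, had 2247 and 2483 at 8 h, 2848 and 3807 at 12 h and 3044 and 4734 at 16 h. The groups did not overlap, the difference was 0.68 ± 0.18, and it passed with trend and robust (limma adjusted p = 0.0088) but not with the offset (0.0861). Idi1, the isopentenyl diphosphate isomerase, measured 0.82 ± 0.17 and passed both settings. Pmvk, a kinase of the mevalonate steps, measured 0.75 ± 0.16 and passed with trend and robust. Mvk (0.81), Mvd (0.91) and Fdft1 (0.64), which makes squalene, passed neither.

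Of the later steps, from squalene to cholesterol, all 9 genes were higher in both experiments, by 0.51 to 1.16. Nsdhl, which helps remove the methyl groups at C4, had 777.1 and 814.5 at 8 h, 1168 and 1331 at 12 h and 1615 and 1964 at 16 h. The steps were alike in the 2 experiments, the groups did not overlap, and the difference was 1.16 ± 0.15 (limma adjusted p = 0.00014 with trend and robust, 0.00253 with the offset). Lss, lanosterol synthase, had 111.9 and 97.9 at 8 h, 161.5 and 170.3 at 12 h and 204.4 and 227.2 at 16 h, a difference of 1.04 ± 0.16 that passed both settings. Cyp51, the lanosterol demethylase, measured 0.90 ± 0.18 on its brightest probe set and 1.06 ± 0.17 on another, and both passed both settings. Sc5d, a sterol desaturase, measured 1.03 ± 0.23 and 1.09 ± 0.18 on its 2 probe sets, and both passed both settings. Dhcr7, the last enzyme of one branch, measured 0.95 ± 0.25 and passed both. Hsd17b7 (1.08 ± 0.27), Sqle (0.59) and Msmo1 (0.51) passed neither.

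Tm7sf2, a sterol C14 reductase that is not on the list, had the largest difference among named genes that passed both settings apart from Fkbp2. Its signals were 212.9 and 169.2 at 8 h, 325.9 and 336.2 at 12 h and 555.9 and 624.0 at 16 h. Each step lay clear of the one before, and the difference was 1.63 ± 0.18 (limma adjusted p = 9.81e-05 with trend and robust). Acat2, which condenses acetyl-CoA at the entry to the mevalonate route, measured 840.5 and 837.9 at 8 h, 1253 and 1125 at 12 h and 1576 and 1829 at 16 h (1.02 ± 0.16, both settings). Acsl3, which activates fatty acids, measured 0.75 and passed both settings. It is no list member and was chosen after its values were seen.

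In the fatty acid branch all 7 genes were higher in both experiments, by 0.27 to 1.24. Scd, which puts the first double bond into fatty acids, had 89.5 and 132.1 at 8 h, 103.5 and 173.2 at 12 h and 162.8 and 406.8 at 16 h. Most of its difference of 1.24 ± 0.23 lay after 12 h (0.94), and it passed both settings. Acly, which supplies cytosolic acetyl-CoA, had 1279 and 1503 at 8 h, 1770 and 2184 at 12 h and 2009 and 3078 at 16 h, a difference of 0.84 ± 0.17 that passed both settings. Fasn, fatty acid synthase, measured 0.67 ± 0.20 and passed with trend and robust (limma adjusted p = 0.047). Elovl6 (0.71 ± 0.31), Fads2 (0.59), Acaca (0.49) and Fads1 (0.27) passed neither setting.

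Genes of regulation and uptake were less uniform in direction than the enzymes. Insig1, which holds SREBP in the endoplasmic reticulum and is itself a target, was 0.61 ± 0.25, with 0.19 in experiment 1 and 1.04 in experiment 2. Srebf2, which encodes SREBP2, had 347.8 and 219.8 at 8 h, 264.2 and 286.3 at 12 h and 301.6 and 382.4 at 16 h, so it was lower in experiment 1 and higher in experiment 2 (0.30 ± 0.29). Srebf1 was likewise split on its brightest probe set (0.14 ± 0.18), while dim ones measured 0.40 and 1.15, each higher in both experiments. Stard4, a sterol carrier, measured 0.17 ± 0.14.

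**Figure D2:**
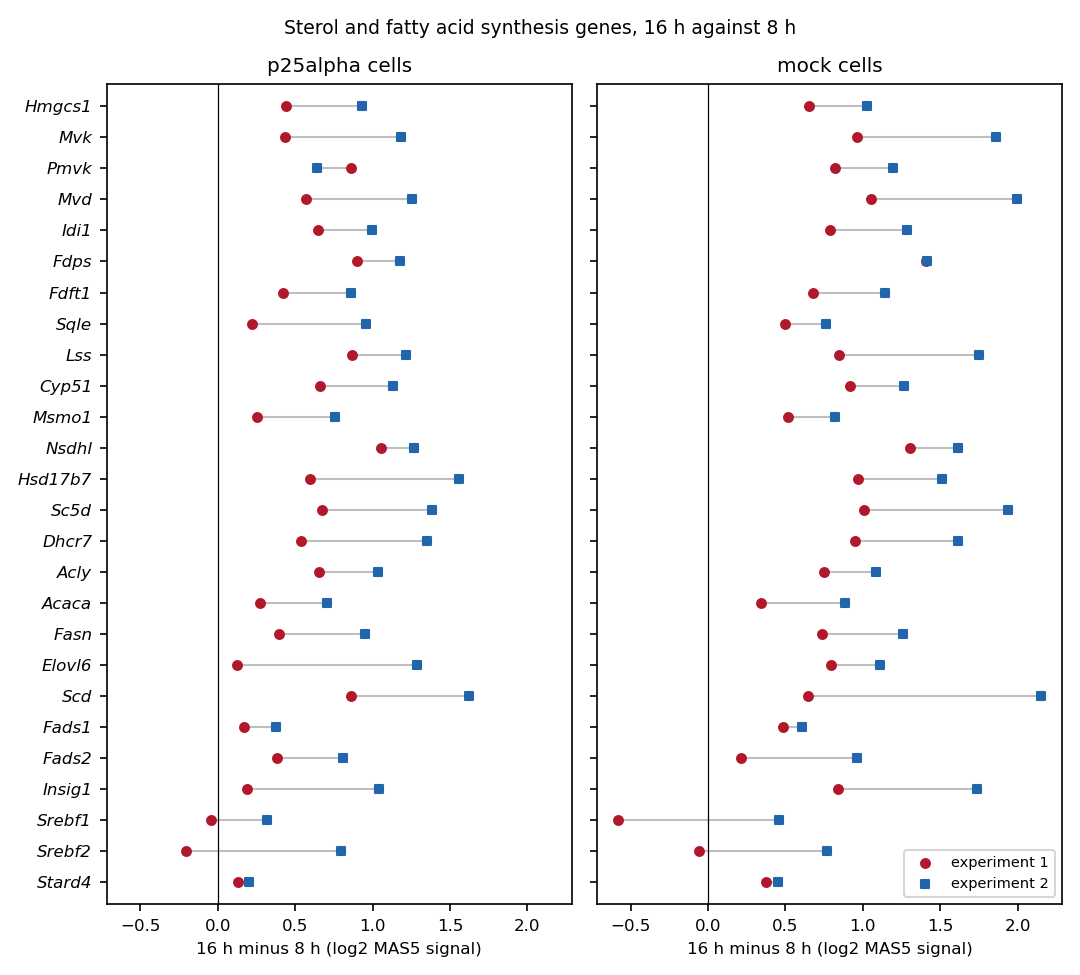
The 16 h minus 8 h difference (log2 MAS5 signal, x axis) is drawn for 26 of the 29 tested sterol and fatty acid genes in p25alpha cells (left) and mock cells (right), with a red circle for experiment 1 and a blue square for experiment 2. In p25alpha cells 24 of these 26 lie right of 0 in both experiments, and experiment 2 lies right of experiment 1 for 25. The list gene that was lower in both experiments is not drawn.

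To show what these genes share at their starts, promoters were read from the RefSeq table of rat assembly GRCr8, 250 bases before to 50 after each start. A single window was taken for each gene, the first where the table had several, which gave 19 of the 29 sterol genes and 20 of the 24 mitosis genes. Searched on both strands were a sterol response element (TCACNCCAC), the CCAAT box, which NF-Y binds beside SREBP and in cell cycle promoters, and TTTGAA, the cell cycle homology region (CHR). CCAAT stood in 15 of 19 sterol promoters (78.9%) and in 37.7% of all 27457 promoters of that length. The TCACNCCAC pattern stood in 0 of 19 and in 1.13% of all, which says only that these letters are not in the window. The promoters of Nsdhl and Fdps, the list's enzymes with the smallest limma p in the paired model, follow with CCAAT, on either strand, in capitals. Nsdhl lies at chrX:155817110-155817409 on the plus strand and Fdps at chr2:176804767-176805066 on the minus strand.
Nsdhl: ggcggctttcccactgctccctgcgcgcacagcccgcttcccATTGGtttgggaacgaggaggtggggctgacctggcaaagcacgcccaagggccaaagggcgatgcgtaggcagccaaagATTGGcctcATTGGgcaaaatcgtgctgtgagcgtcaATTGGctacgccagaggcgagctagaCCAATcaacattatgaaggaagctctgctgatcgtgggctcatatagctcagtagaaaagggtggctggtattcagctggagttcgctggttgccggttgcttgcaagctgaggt
Fdps: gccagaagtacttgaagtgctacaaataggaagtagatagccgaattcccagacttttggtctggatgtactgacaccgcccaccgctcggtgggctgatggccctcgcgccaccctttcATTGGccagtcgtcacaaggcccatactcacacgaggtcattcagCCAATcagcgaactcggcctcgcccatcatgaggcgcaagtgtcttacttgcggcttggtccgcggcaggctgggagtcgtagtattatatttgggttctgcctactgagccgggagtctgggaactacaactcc

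The window of Nsdhl holds 5 such boxes and that of Fdps 2. A match is a string of letters and not a shown binding site.

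At 12 h the sterol genes lay on the way. Their median difference was 0.38 at 12 h against 8 h and 0.34 at 16 h against 12 h, and 22 of 29 had 12 h between 8 and 16 h in both experiments. The share over all tested probe sets was not counted, and a middle 12 h is favoured wherever 16 and 8 h lie far apart. These genes were also higher at 16 h in mock cells. Fdps had 4936 and 3921 at 16 h in mock cells against 1863 and 1467 at 8 h, a difference of 1.41, and Nsdhl had 1844 and 2306 against 747.8 and 750.9, a difference of 1.46. In mock cells the limma model over 12 arrays called 3 probe sets (0.017%), namely Fdps, Nsdhl and Tm7sf2, all higher at 16 h. The mock median of the 29 genes was 0.96. The p25alpha difference minus the mock difference had a median of -0.25, against 0.00 over all tested probe sets, and was below 0 for 27 of 29 genes, the exceptions being Fads2 and Srebf1. None of the 29 reached an unadjusted limma p under 0.05 for that contrast, where 4.29% of all probe sets did, with Fdps at -0.37 ± 0.17 and Insig1 at -0.68 ± 0.40. The difference was below 0 in both experiments for 20 of 29 genes and above 0 in both for 0, where 26.4% of all probe sets were below 0 in both, and the median was -0.25 in each experiment.

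Mitosis genes, most of them transcribed in G2 and M phase, were lower at 16 h in p25alpha cells. All 24 tested genes were present on all 6 arrays. Their median was -0.39, with -0.19 in experiment 1 and -0.42 in experiment 2, and the median moved to -0.22 without the 8 h array of experiment 2 and to -0.21 without the 16 h array of experiment 2. Lower in both experiments were 20 of 24 (26.7% of all probe sets), and 8 were lower at an unadjusted limma p under 0.05 (3.47% of all). With trend and robust 2 passed (0.0964% of all), Ube2c and Cdk1, and with the offset 1 did (0.0567%), Ube2c. Ube2c, the ubiquitin-conjugating enzyme of the anaphase-promoting complex, had 1157 and 862.9 at 8 h, 897.4 and 565.0 at 12 h and 579.6 and 501.2 at 16 h. The 16 h arrays lay below both 8 h arrays, and the difference was -0.89 ± 0.18 (limma adjusted p = 0.00736 with trend and robust). Cdk1, the kinase that drives entry into mitosis, had 1739 and 1850 at 8 h, 1303 and 1425 at 12 h and 1040 and 1336 at 16 h, a difference of -0.61 ± 0.15 without overlap. Nusap1, a spindle protein, was -0.75 ± 0.24, with 557.5 and 1013 at 8 h and 403.8 and 493.7 at 16 h. For 9 of the 24 mitosis genes 12 h lay between 8 and 16 h in both experiments, and the share over all tested probe sets was not counted.

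The other genes with an unadjusted limma p under 0.05 were Birc5 (-0.59), a survival and spindle protein, Top2a (-0.59), the DNA topoisomerase of condensing chromosomes, Aurka (-0.56) and Plk1 (-0.47), kinases of the spindle poles, and Prc1 (-0.47), which bundles the midzone. Bub1b, Kif23, Mad2l1 and Pttg1 were higher in 1 experiment and lower in the other on their brightest probe sets. Another probe set of Kif23 was lower in both experiments, at -0.53. Other probe sets of Top2a measured -0.08, split in direction, and -0.79, lower in both experiments. Ccnb1, cyclin B1, measured -0.45 on its brightest probe set and -0.64 on another, which passed with trend and robust. Outside the list, Tacc3, a spindle pole protein, had 489.3 and 521.7 at 8 h, 409.8 and 366.6 at 12 h and 278.9 and 283.2 at 16 h. Its 16 h signals were the lowest of the course in both experiments, and the difference of -0.85 ± 0.15 passed both settings, as did that of Cdca2, a chromatin protein of dividing cells, at -0.79 ± 0.15. Smc4, a condensin subunit, was level at 12 h (398.2 and 545.9, against 345.1 and 547.5 at 8 h) and stood at 226.7 and 373.1 at 16 h.

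**Figure D3:**
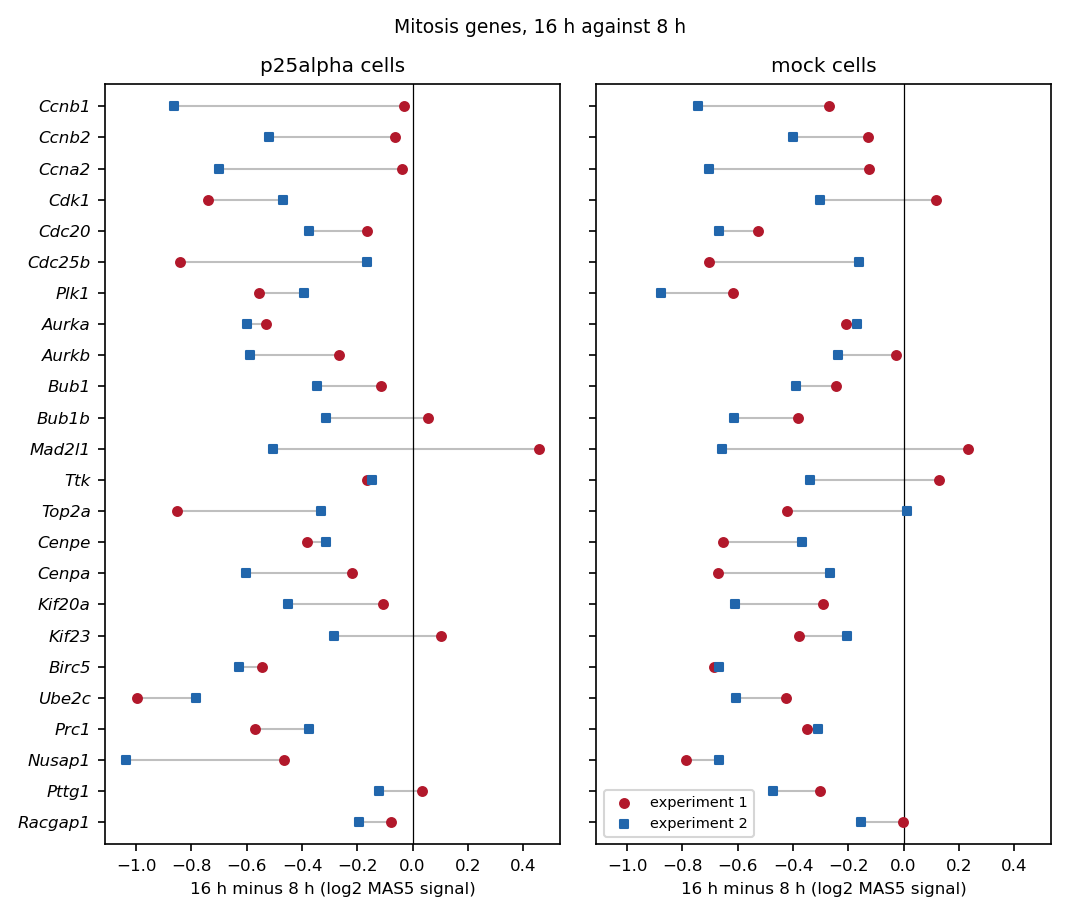
The 16 h minus 8 h difference (log2 MAS5 signal, x axis) is drawn for the 24 tested mitosis genes in p25alpha cells (left) and mock cells (right), with a red circle for experiment 1 and a blue square for experiment 2. In p25alpha cells 20 genes lie left of 0 in both experiments, and Ube2c has the lowest mean of the list, -0.89.

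In mock cells the median of the 24 genes was -0.40, and the median of the p25alpha minus mock difference was 0.05. Cdk1 alone of the list reached an unadjusted limma p under 0.05 for that contrast (-0.51 ± 0.20), with -0.61 in p25alpha cells and -0.09 in mock cells. DNA replication and S phase genes did not follow: their median was -0.03 over 19 genes, with 1 lower at an unadjusted limma p under 0.05, Gins1 (-0.59 ± 0.16), a subunit of the replicative helicase. The TTTGAA pattern stood in 14 of 20 mitosis promoters (70.0%), in 2 of 19 sterol promoters and in 18.1% of all. CCAAT stood in 16 of 20 (80.0%). The promoter of Cdk1 at chr20:19265043-19265342, plus strand, GRCr8, is shown as the kinase that passed with trend and robust, with matches to the CCAAT box and the CHR on either strand in capitals.
Cdk1: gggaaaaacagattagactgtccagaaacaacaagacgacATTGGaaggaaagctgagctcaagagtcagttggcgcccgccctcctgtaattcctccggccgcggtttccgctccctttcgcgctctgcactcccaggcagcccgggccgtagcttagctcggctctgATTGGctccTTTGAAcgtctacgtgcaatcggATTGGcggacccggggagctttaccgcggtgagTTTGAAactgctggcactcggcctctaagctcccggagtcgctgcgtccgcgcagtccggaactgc

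For some genes the 16 h minus 8 h difference was larger in p25alpha cells than in mock cells, where it was small or negative. Il6, the cytokine interleukin 6, had 117.3 and 201.1 at 8 h, 284.3 and 391.4 at 12 h and 389.3 and 390.1 at 16 h. Both later times lay above 8 h in both experiments, and most of the difference was there by 12 h. The difference was 1.34 ± 0.23, or 2.54-fold, and passed both settings (limma adjusted p = 0.00155 and 0.00484). In mock cells Il6 had 56.3 and 59.9 at 16 h against 41.4 and 52.9 at 8 h (0.31), below every p25alpha array, and the p25alpha minus mock difference was 1.03 ± 0.28 (unadjusted limma p under 0.05). Txnip, a thioredoxin-binding protein that restrains glucose uptake, had 113.6 and 231.8 at 8 h, 260.8 and 478.7 at 12 h and 447.1 and 478.5 at 16 h. The groups at 8 and 16 h did not overlap, and the difference of 1.51 ± 0.28 passed both settings, against 0.09 in mock cells (difference 1.42 ± 0.31, unadjusted limma p under 0.05). Txnip was called present on 1 of 6 mock arrays, so its mock signals are near background and the sizes of the mock difference and of the difference between arms are uncertain.

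Gadd45b, a stress-induced regulator of p38 and JNK signalling, had 434.8 and 216.2 at 8 h, 657.6 and 365.5 at 12 h and 870.8 and 346.1 at 16 h. Within each experiment 16 h exceeded 8 h, although the groups overlap because experiment 2 was dimmer, and the difference of 0.84 ± 0.18 passed both settings. In mock cells it measured -0.33, and the difference between the arms was 1.17 ± 0.25 (unadjusted limma p under 0.05). Clec2d, a lectin-like ligand of natural killer cell receptors, had 133.2 and 169.3 at 8 h, 211.8 and 260.6 at 12 h and 272.6 and 294.2 at 16 h (0.92 ± 0.15, both settings; mock 0.28). Resf1, a nuclear protein linked to silencing of retroelements in mouse cells, passed both settings on both of its probe sets, at 0.84 ± 0.15 and at 1.39, against -0.10 and -0.78 in mock cells.

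For Oga and Fkbp2 the probe sets of the gene differed in size of change. Oga, the enzyme that removes O-linked N-acetylglucosamine, had 61.0 and 102.4 at 8 h, 92.4 and 130.3 at 12 h and 138.3 and 213.2 at 16 h, and its difference of 1.12 ± 0.15 passed both settings, while its 2 other probe sets measured 0.19 and 0.47, the second higher in both experiments. In mock cells the 3 probe sets of Oga measured -0.42, -0.31 and -0.59. Fkbp2, a prolyl isomerase of the endoplasmic reticulum, had 211.4 and 364.5 at 8 h, 290.9 and 1165 at 12 h and 606.5 and 1361 at 16 h on a probe set that by its suffix may bind other transcripts. Its difference was 1.71 ± 0.33, while the other 2 probe sets of Fkbp2 measured 0.05 and 0.08. The authors' deposited change call for the first probe set was no change at either step in either experiment. The largest difference of all that passed both settings belongs to a probe set with no gene name, described after its values were seen, with 88.5 and 228.2 at 8 h, 222.5 and 604.9 at 12 h and 444.7 and 868.0 at 16 h (2.13, limma adjusted p = 6.79e-06 with trend and robust). This unnamed probe set measured 0.29 in mock cells.

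**Figure D4:**
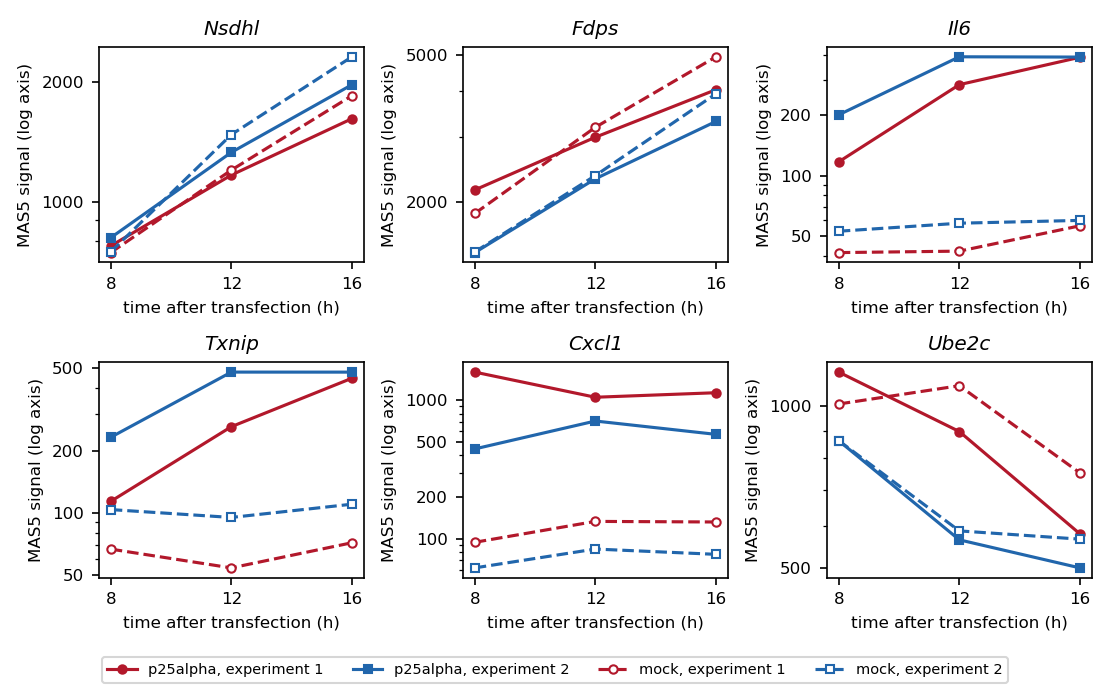
MAS5 signal on a log axis against hours after transfection for 6 genes, with filled markers and full lines for p25alpha cells, open markers and dashed lines for mock cells, red for experiment 1 and blue for experiment 2. Nsdhl and Fdps climb in all 4 courses, Il6 and Txnip climb in p25alpha cells and stay near their 8 h signal in mock cells, Cxcl1 is high in p25alpha cells from 8 h on, and Ube2c is lower at 16 h in all 4.

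Genes that were bright in p25alpha cells at 8 h already did not share a direction over time. Cxcl1, a neutrophil chemokine, had 1590 and 444.8 at 8 h, 1048 and 706.6 at 12 h and 1129 and 566.4 at 16 h in p25alpha cells. It was lower at 16 h in experiment 1 and higher in experiment 2 (-0.07 ± 0.34), while mock arrays lay between 61.9 and 133.8. Ccl2, a monocyte chemokine, had 4198 and 2395 at 8 h, 4355 and 3557 at 12 h and 3814 and 2441 at 16 h (-0.06 ± 0.19). Egr1, an immediate early transcription factor, had 322.1 and 343.2 at 8 h, 419.6 and 365.0 at 12 h and 357.8 and 270.7 at 16 h (-0.10 ± 0.18). Nfkbia, the inhibitor of NF-kB, was -0.06 ± 0.23. For these 4 genes the groups at 16 h and 8 h overlap, and leaving out 1 array turned the sign, to as high as 0.46 for Cxcl1, 0.12 for Ccl2, 0.10 for Egr1 and 0.13 for Nfkbia.

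As a list, 15 NF-kB targets and chemokines had a median of -0.04 (1 higher at an unadjusted limma p under 0.05, Il6), with Csf1, a macrophage growth factor, at 0.41 ± 0.24. Among 10 growth factors and cytokines (median -0.06) Il6 was again the 1 gene higher at an unadjusted limma p under 0.05 (3.24% of all). Gdnf, a neurotrophic factor, measured -0.34 ± 0.35 at dim signals. Immediate early genes had a median of 0.15 over 22 genes, with Egr2, a transcription factor of the Egr family, at 0.58 ± 0.14 (unadjusted limma p under 0.05; 730.3 and 757.0 at 16 h against 466.3 and 533.1 at 8 h). Btg2, an antiproliferative gene of the list, measured 0.51 ± 0.22. Myc was 0.40 ± 0.20 in p25alpha cells and -0.62 in mock cells, a difference of 1.02 (unadjusted limma p under 0.05). Interferon-stimulated genes had a median of 0.04 over 14, with 0 at an unadjusted limma p under 0.05, and their largest differences, Mx2 (-2.19 ± 1.32) and Mx1 (0.55 ± 0.38), rested on signals under 20.

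For 15 p53 targets the median was 0.25 (0.11 in experiment 1 and 0.14 in experiment 2), with 8 higher in both experiments (23.6% of all) and 3 higher at an unadjusted limma p under 0.05 (3.24% of all). The median of their p25alpha minus mock difference was 0.35. Gadd45a, a DNA damage response gene, had 1454 and 945.0 at 8 h, 2164 and 1291 at 12 h and 2653 and 1310 at 16 h (0.67 ± 0.17), and Plk2, a stress kinase, had 426.7 and 709.4 at 8 h, 593.2 and 818.4 at 12 h and 791.7 and 980.1 at 16 h (0.68 ± 0.17). Both passed with trend and robust (limma adjusted p = 0.0177 and 0.047) and not with the offset. Bbc3, the apoptosis inducer PUMA, was 0.74 ± 0.20 with 459.9 and 196.7 at 16 h against 227.8 and 142.7 at 8 h, and Plk3 (1.15 ± 0.70) was dim. The 21 death receptor and apoptosis genes had a median of -0.06 and 0 at an unadjusted limma p under 0.05, with Bid (-0.78 ± 0.35) and Faslg (0.66 ± 0.29) at signals under 50.

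In the 17 endoplasmic reticulum chaperone genes (median 0.07), Xbp1, a transcription factor of the unfolded protein response, had 801.8 and 686.9 at 8 h, 641.6 and 527.2 at 12 h and 594.3 and 528.6 at 16 h. Its groups did not overlap (-0.41 ± 0.14, unadjusted limma p under 0.05), and Herpud1, of the same response, measured 0.34 ± 0.23. Among 22 amino acid response genes (median -0.05) Slc38a2 (0.51 ± 0.15) and Slc3a2 (0.39 ± 0.15), both amino acid transporter genes, were higher at an unadjusted limma p under 0.05 (3.24% of all). Of 19 oxidative stress genes (median 0.01) 2 were higher and 3 lower at that level (3.24% and 3.47% of all), the lower ones being Gpx1, a peroxidase (-0.58 ± 0.19), Hmox1, heme oxygenase (-0.57 ± 0.19) and dim Gsr (-0.55). Among 17 cytosolic heat shock genes (median 0.09) Hspb8 measured 2.90 ± 0.69 on signals of 14.1 and 27.5 at 16 h against 0.9 and 7.7 at 8 h, too dim for its size to be read, and Hsph1 measured 0.24.

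**Figure D5:**
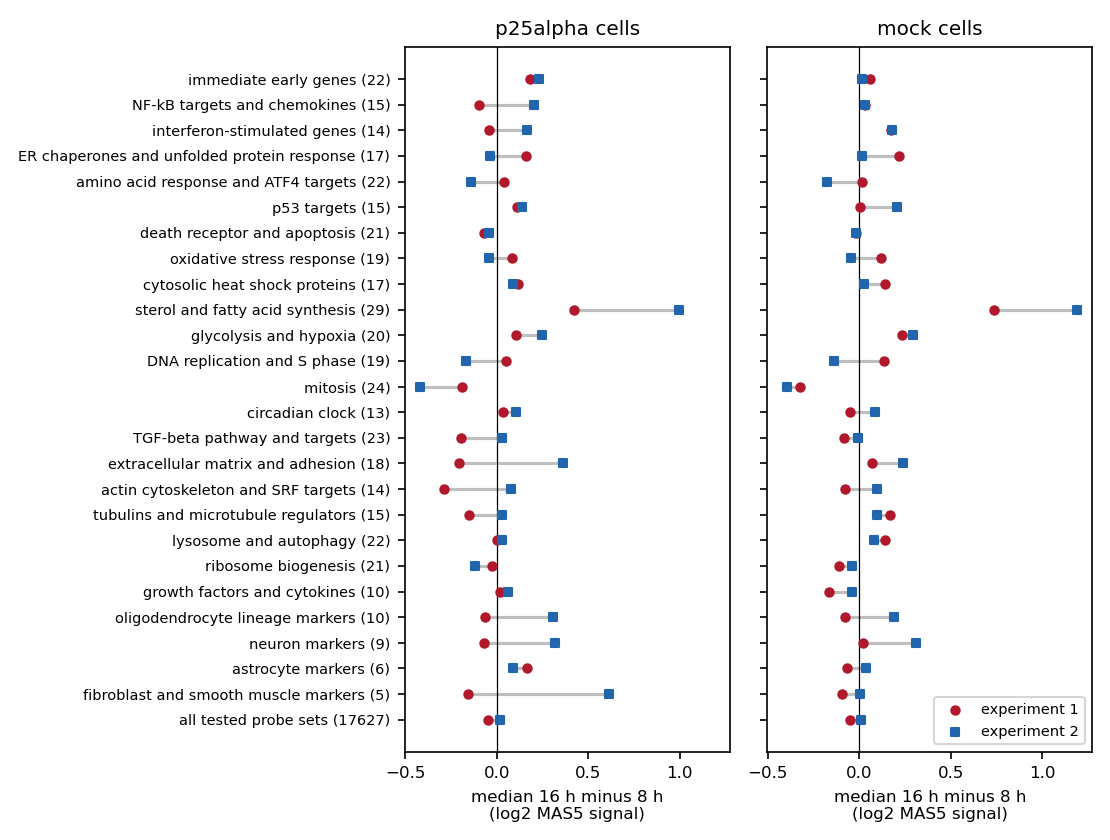
Median 16 h minus 8 h difference (log2 MAS5 signal, x axis) of the tested genes of each list, number of genes in brackets, in p25alpha cells (left) and mock cells (right), with a red circle for experiment 1 and a blue square for experiment 2. The microglia markers, with 1 tested gene (0.58 and -2.29 in p25alpha cells), are not drawn. Among the lists drawn, sterol and fatty acid synthesis lies farthest to the right in both arms (0.42 and 0.997 in p25alpha cells). Mitosis lies farthest to the left of them except in experiment 1 of p25alpha cells (-0.19), where the actin and SRF list (-0.29), the extracellular matrix list (-0.20) and the TGF-beta list (-0.20) lie lower.

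The 20 glycolysis and hypoxia genes had a median of 0.08 (0.11 in experiment 1 and 0.25 in experiment 2), with 9 higher in both experiments (23.6% of all), 1 lower in both, and 4 higher at an unadjusted limma p under 0.05 (3.24% of all), Aldoc, a glycolytic aldolase (0.97 ± 0.31), Ndrg1 (0.85 ± 0.26) and Ddit4 (0.64 ± 0.15), both hypoxia-induced, among them. Tubulins, which p25alpha binds, and microtubule regulators had a median of -0.03 over 15 genes. In mock cells their median was 0.14, with 13 higher and 2 lower. The p25alpha minus mock difference had a median of -0.15, at -0.27 in experiment 1 and -0.01 in experiment 2. It was below 0 for 11 of 15 and reached an unadjusted limma p under 0.05 for 0. In p25alpha cells the 1 member that passed with trend and robust was Map1b, a microtubule-associated protein, with 1768 and 2467 at 8 h, 2359 and 2983 at 12 h and 2672 and 3370 at 16 h (0.52 ± 0.14, limma adjusted p = 0.0225). Its other 3 probe sets measured -0.05, -0.05 and 0.14, and Tubb3, a tubulin, measured 0.29 ± 0.34. Extracellular matrix genes had a median of -0.20 in experiment 1 and 0.36 in experiment 2, with Col3a1 (0.75 ± 0.23) and Col4a2 (-0.32 ± 0.38), both collagens. Actin and SRF target genes had -0.29 and 0.08, with Acta2 (-1.05 ± 0.67) and Srf (0.36 ± 0.17).

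Lysosome and autophagy genes had a median of 0.02 over 22, with Mcoln1, a lysosomal channel, at -0.54 ± 0.20 and Lamp1 at -0.26. Ribosome biogenesis genes had -0.05 over 21, with Dkc1 (-0.67 ± 0.23) and Ppan (-0.51 ± 0.27). Circadian clock genes had 0.03 over 13, with Dbp (0.42 ± 0.22) and Nr1d1 (0.40 ± 0.14). Among lineage markers, Mag was 0.61 ± 0.56, among neuron markers Snap25 was 0.51 ± 0.15 and dim Rbfox3 -1.77 ± 0.65, and among astrocyte markers Aldoc is named above and Gfap was -0.10 ± 0.39. Acta2 and Col3a1 also lead the fibroblast markers.

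Of the lower transcripts, Pmepa1, a TGF-beta target that restrains the same pathway, had 1769 and 470.2 at 8 h, 1026 and 338.1 at 12 h and 848.9 and 228.0 at 16 h. The experiments differ in level, and the step within each was alike (-1.06 and -1.04), for a difference of -1.05 ± 0.16 (limma adjusted p = 0.00127 with trend and robust). Mock cells measured -0.91. The 23 TGF-beta genes as a list had a median of -0.10, with 1 higher, Id2 (0.68 ± 0.17), and 2 lower, Pmepa1 and Smad7 (-0.72 ± 0.22), at an unadjusted limma p under 0.05 (3.24% and 3.47% of all). Il1rl1, the receptor of interleukin 33, had 2494 and 1942 at 8 h, 1277 and 1202 at 12 h and 1171 and 1150 at 16 h. The step lay between 8 and 12 h, the difference of -0.92 ± 0.16 passed both settings, and mock cells measured -0.87. A much dimmer probe set of Il1rl1 measured -0.17, with 0.04 in experiment 1 and -0.39 in experiment 2. Il33, its ligand, had 257.9 and 117.8 at 8 h, 138.3 and 90.0 at 12 h and 134.5 and 47.7 at 16 h and also passed both settings (-1.12, mock -1.17). It was chosen after its values were seen.

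Mt1, a metallothionein, had 1417 and 640.5 at 8 h, 1041 and 536.1 at 12 h and 860.6 and 358.6 at 16 h (-0.78 ± 0.16, both settings; mock -0.85), while another probe set of Mt1 measured 0.05. Prpf4b, a kinase of pre-mRNA splicing, had 180.7 and 191.0 at 8 h, 171.6 and 154.2 at 12 h and 66.2 and 68.7 at 16 h. Its step lay after 12 h, and the difference of -1.46 ± 0.15 passed both settings, but 2 other probe sets of Prpf4b measured 0.08 and 0.09. Pdzrn3, a ubiquitin ligase, had 1013 and 847.4 at 8 h, 804.9 and 623.9 at 12 h and 655.1 and 543.3 at 16 h (-0.64 ± 0.14), and passed with trend and robust. Mock cells measured 0.08 for it. Sipa1 (-0.77), a Rap GTPase activator, Rad23b (-0.66), a DNA repair factor, Srrm1 (-0.75), a splicing protein, and Selenow (-0.69), a selenoprotein, completed the 12 lower genes of the naming rule and passed neither setting. Brighter probe sets of Rad23b and Srrm1 measured 0.06 and -0.15.

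The next comparisons split the course at 12 h. Between 8 and 12 h the paired limma model called 0 probe sets (0.0%), with 924 at an unadjusted p under 0.05 (5.24%). With trend and robust 5 passed (0.0284%), 4 higher (0.0227%) and 1 lower, and with the offset 1 did (0.00567%). Il6 (1.12 ± 0.23, limma adjusted p = 0.0447) and Il1rl1 (-0.83 ± 0.16, limma adjusted p = 0.0162) were among those with trend and robust. The dimmer probe set of Il1rl1 measured -0.18 for this step, with 0.31 in experiment 1 and -0.66 in experiment 2. The other genes of the rule, which passed no setting, were Snx27, a sorting nexin (0.81 ± 0.15), Nsdhl (0.65 ± 0.15) and Tm7sf2 (0.80 ± 0.18) upwards, and MGC94288 (-0.89 ± 0.14), Otud7b, a deubiquitinase (-0.85 ± 0.16), and Ube2n, a ubiquitin-conjugating enzyme (-0.79 ± 0.16), downwards. Snx27 had 184.5 and 285.5 at 8 h, 342.6 and 471.0 at 12 h and 296.0 and 382.5 at 16 h, highest at 12 h in both experiments. Otud7b had 140.9 and 125.4 at 8 h, 75.5 and 71.9 at 12 h and 99.1 and 113.1 at 16 h, lowest at 12 h in both. Other probe sets varied. For 12 h against 8 h the other 3 of Snx27 measured 0.06, 0.53 and 0.56, the brightest at 0.06, the other 4 of Otud7b between -0.39 and 0.09, and the other 1 of Ube2n, which is brighter, 1.08.

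Between 12 and 16 h the paired limma model called 0 (0.0%), with 722 at an unadjusted p under 0.05 (4.1%), and 0 with either setting. The genes of the rule, none passing, were Nsmce3 (0.98 ± 0.20), Tm7sf2 (0.83 ± 0.18), Oga (0.65 ± 0.15) and Scd (0.94 ± 0.23) upwards and Prpf4b (-1.27 ± 0.15), Smc4 (-0.68 ± 0.15), Srrm1 (-0.65 ± 0.16) and Ank3, ankyrin G (-0.61 ± 0.17), downwards. Of the 42 probe sets that passed both settings for 16 h against 8 h, 35 had 12 h between the other times in both experiments, with median differences of 0.56 for 12 h against 8 h and 0.34 for 16 h against 12 h. These 42 were picked for their 16 h minus 8 h difference, which favours a 12 h signal in between. By the authors' deposited table, the MAS5 change call was increase in both experiments for 49 probe sets (0.278%) and decrease for 25 (0.142%) at 12 h against 8 h, and for 22 (0.125%) and 15 (0.0851%) at 16 h against 12 h. Of the genes named for 16 h against 12 h, Tm7sf2 and Scd were called increased in both experiments. Nsmce3, with deposited log ratios of -0.1 and 0.3, and Ank3 were called unchanged in both. Oga, Prpf4b and Srrm1 were called changed in experiment 1 only, and Smc4 was decreased, marginally in experiment 1.

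The last comparison asked whether the change from 8 to 16 h differed between p25alpha and mock cells, which no comparison within p25alpha cells can answer. Over 12 arrays limma called 0 probe sets (0.0%), with 756 at an unadjusted p under 0.05 (4.29%), 433 (2.46%) with a more positive and 323 (1.83%) with a more negative change in p25alpha cells. Each setting called 1 probe set (0.00567%), the unnamed one described above, at 1.84 more in p25alpha cells. Of the 42 probe sets, 33 differed in the same direction in mock cells in both experiments, and 15 reached an unadjusted limma p under 0.05 for the difference between arms. The share of all probe sets alike in both arms was not counted. The 42 were picked by their p25alpha difference, which is part of this contrast, so their 15 cannot be set against the 4.29%. Beside Oga, Fkbp2, Gadd45b and Txnip, the rule named Id4, an inhibitor of DNA binding, which was level in p25alpha cells (99.0 and 87.5 at 16 h against 101.9 and 87.3 at 8 h) and lower in mock cells (77.3 and 68.3 at 16 h against 151.6 and 138.0 at 8 h), a difference of 0.97 ± 0.18 (unadjusted limma p under 0.05). Of its other probe sets, 2 had the opposite sign in this contrast, at -0.60 and -0.42, and the brightest measured -0.03. Spata9, a testis gene by name, differed by 1.06 ± 0.24.

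In the other direction stood Stx5, a Golgi SNARE, with 270.3 and 207.2 at 16 h against 337.6 and 261.7 at 8 h in p25alpha cells and 332.3 and 297.6 at 16 h against 226.4 and 197.0 at 8 h in mock cells. Its arms moved apart in both experiments (-0.90 ± 0.18, unadjusted limma p under 0.05), while 2 other probe sets measured 0.95 and -0.39 in this contrast. Exoc7, an exocyst subunit, Gipc1, an adaptor of membrane traffic (-1.26 ± 0.29), Prpf4b (-1.18 ± 0.26), Nploc4, a partner of the p97 segregase (-0.78 ± 0.21, but 0.53 on each of its 2 other probe sets), and a second probe set of Nsmce3 (-0.68 ± 0.16) completed the 6. The probe set of Nsmce3 named for 16 h against 12 h measured 0.03 in this contrast. None of the named differences between arms had an adjusted limma p under 0.05.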

How the data were processed

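Total RNA was labelled as biotinylated cRNA by the Affymetrix protocol, per the labels. Per the submitters' processing notes the authors used MAS5 (version not given) for signal intensity and detection calls. Deposited intensities are linear, with the same trimmed mean (150.1) on all arrays, so scaled by the authors. The deposited table also holds log2 signal log ratios and change calls for pairs of arrays, per the file headers. A second deposited table of the same intensity values, rounded, differed by at most 0.5 and only served to match columns to samples. 3 probe sets held only by it were not used.

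Signals were floored at 0.1 (4 tested values) and log2 was taken. lmFit and eBayes of limma 3.58.1 under R 4.3.3 were run on the 6 p25alpha arrays with the experiment as a block, and on all 12 arrays for the difference from mock cells and for mock cells, with Benjamini-Hochberg adjustment over 17627 probe sets and a threshold of 0.05. The block comes from the experiment numbers of the titles. As a check of the pairing, arrays with the same number deviated together, with correlations of 0.60, 0.59 and 0.63. Residual degrees of freedom were 2 and 5. The number of arrays limits the precision.

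Symbols came from the deposited annotation, updated through a RefSeq table of GRCr8. 20132 probe sets have 1 symbol, 331 several and 10633 none. Members of lists are read by their brightest tested probe set, genes of the naming rule by the probe set with the smallest p that met it, which can be a dimmer one. The naming rule took probe sets with 1 symbol, the same sign in both experiments, a brighter time above the median log2 signal (6.95) and present on both its arrays: 12 each way for 16 h against 8 h, 4 for the 12 h steps and 6 for the difference between arms, filled by smallest p where none passed, plus 2 to 4 members of each list and 7 fixed genes. Further genes, list members among them, were named after their values were seen. Members and lists were chosen with earlier results of these data known. Alternatives were no block, all 12 arrays, quantile normalization, median centring, no filter, presence on all 6 arrays, an offset of 50, trend and robust, and each array left out. The code was tested on simulated data. Figures were drawn with matplotlib 3.10.9. Results for some list members are not reported here, though counts and medians include them.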

Additional observations from a re-analysis of the deposited data

How the results depend on the processing

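Calls depended on how the spread was estimated. For 16 h against 8 h the count of 0 became 43 with an offset of 50 and 62 with trend and robust. For 12 h against 8 h it became 1 and 5, and for the p25alpha minus mock difference 1 and 1. It stayed 0 for 16 h against 12 h. Without the replicate block every count was 0 as well, and so it was with all 12 arrays, quantile normalization, median centring, no filter or presence on all 6 arrays. Chosen after seeing the data, the authors' deposited table gave 74 change calls shared by both experiments at 12 h against 8 h and 37 at 16 h against 12 h, and the change averaged over both arms gave 3 calls. Leaving out 1 array, with the lone array taken to spread as the rest do, gave 0 to 0 calls for the 3 comparisons within p25alpha cells and 0 to 9 for the difference, with 9 without mock_16h replicate 2, 2 without p25_16h replicate 2 and 1 without mock_16h replicate 1.

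The sterol median ranged from 0.44 to 0.94 and the mitosis median from -0.44 to -0.21 with 1 array left out. With 1 array left out Cxcl1 ranged from -0.60 to 0.46 (0.46 without p25_8h replicate 1, 0.03 without p25_16h replicate 1), Ccl2 from -0.23 to 0.12 (without p25_8h replicate 1), Nfkbia from -0.25 to 0.13 (0.13 without p25_8h replicate 1, 0.08 without p25_16h replicate 2) and Egr1 from -0.29 to 0.10 (0.10 without p25_8h replicate 2, 0.08 without p25_16h replicate 2), and the positive values have the opposite sign to that of all 6 arrays. With 2 experiments the paired model within p25alpha cells called no difference of any size, that of Pmepa1 (-1.06 and -1.04) included. Dim probe sets are limited by signal over background.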
